A study of Mus musculus with 2 samples.

Results

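The protein components of the cytosolic ribosome were followed through the transcripts of 83 mouse genes, of 55536 annotated genes in the deposited tables and of 21901 with a protein-coding transcript. Members were the genes with a protein-coding transcript whose symbol was Rpl or Rps followed by a number, Rplp0 to Rplp2, or Rpsa, with an added letter or a trailing l allowed. They comprised 31 small subunit genes, 43 large subunit genes, 3 genes of the P stalk and 6 additional copies of ribosomal protein genes, namely Rpl3l, Rpl7l1, Rpl10l, Rpl22l1, Rpl39l and Rps27l. The rule used names and annotation, not levels. The 6 symbols Rpl32l, Rpl6l, Rps12l1, Rps3a2, Rps3a3 and Rps4l fitted the name pattern but had no protein-coding transcript and were left out.

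A ribosome holds 1 copy of nearly every one of these proteins, so cells make them in closely matched amounts from genes scattered over the genome. The small subunit reads the messenger RNA, the large subunit joins amino acids, and the stalk of acidic P proteins recruits the translation factors. Most of these messengers carry a 5′ terminal oligopyrimidine (TOP) tract, a C at the first base followed by a run of pyrimidines, through which mTOR and LARP1 set their translation. Ribosomal protein messengers are short and abundant and have left many processed pseudogenes in mammalian genomes, so that reads from them are hard to assign.

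Macrophages differentiated in culture from the bone marrow of C57BL/6J mice gave 2 libraries of 1 group. They are primary cells. Cells were given lipid A at 100 ng/ml for 12 h, kept without it for 12 h, and given 100 ng/ml again for 120 min. Lipid A, the membrane anchor of lipopolysaccharide and a ligand of TLR4, is named in the description of the experiment, whereas other label fields name lipoprotein A. Sex and age were not collected, both libraries carry 1 donor identifier, and separate animals are not stated, so their spread may hold technical as well as biological variation. No other condition was analysed here, so the values below are levels and ratios without a test.

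Replicate 1 held 45341916 expected counts over annotated genes and replicate 2 held 32087637, with 599761 and 282501 of them in the members. A floor of 3 reads corresponded to 0.0662 and 0.0935 CPM (reads scaled to the library total), and covers counting error only. All 10 macrophage markers reached 10 TPM (a transcript level per length, relative to the library's total) in both libraries, led by Lyz2, Ctsd, Cd68 and Adgre1. Markers of other marrow cells were low but uneven between libraries, as given with the ratios below. In such bulk samples, fewer cells of a type and less RNA per cell cannot be told apart.

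The TOP tract was visible in part of the annotated starts. Of the 63 members in the RefSeq promoter table (build GRCm38.p6), 13 had, on the transcribed strand, a C at an annotated start with at least 4 further bases that were all C or T, a share of 20.6%. The same was found for 813 of 27025 genes in the table, or 3.01%. The starts of 5 of the 13 are shown because their tracts, of 7 to 13 bases, are easily seen in members of both subunits, with 10 bases before and 20 bases from the annotated start, and the capitals mark the tract from the start on.
Rps6, chr4:86857348-86857377, minus strand: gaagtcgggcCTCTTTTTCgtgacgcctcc
Rps18, chr17:33955646-33955675, minus strand: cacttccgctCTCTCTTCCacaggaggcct
Rps27, chr3:90213629-90213658, minus strand: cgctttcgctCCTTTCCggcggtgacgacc
Rpl15, chr14:18270967-18270996, minus strand: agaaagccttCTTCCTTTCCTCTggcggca
Rpl35, chr2:39005112-39005141, minus strand: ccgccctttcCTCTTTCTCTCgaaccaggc
Tract lengths were 9 bases for Rps6 and Rps18, 7 for Rps27, 13 for Rpl15 and 11 for Rpl35. The other 8 were Rpl14, Rpl28, Rpl35a, Rpl38, Rplp2, Rps10, Rps15a and Rps21. The search asks for the letters at 1 annotated base, and a start annotated a few bases away is not found by it.

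Ribosomal protein genes stood high in these macrophages and covered a wide range. In both libraries 73 of 83 members reached 100 TPM, against 5.23% of all genes with a protein-coding transcript, and 80 of 83 reached 1 TPM, against 44.6%. Their summed level was 49067 TPM in replicate 1 and 30449 TPM in replicate 2. That was 5.33% and 3.31% of the TPM of protein-coding genes, a mean of 4.32 ± 1.43% (SD, n = 2). Because the messengers are short, they took only 1.40% and 0.921% of the expected counts of protein-coding genes. The median member was at 509.96 TPM in replicate 1 and 314.74 TPM in replicate 2.

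The subunits lay close together. The 31 small subunit genes had a median of 582 TPM in replicate 1 and 327 TPM in replicate 2, and 30 of them reached 100 TPM in both. The 43 large subunit genes had medians of 497 and 318 TPM, and 39 reached 100 TPM in both. The 3 stalk genes all did so: Rplp1 was at 1731 and 741 TPM, Rplp0 at 533 and 486 TPM, and Rplp2 at 411 and 311 TPM. Rplp0 anchors the stalk to the ribosome and binds pairs of Rplp1 and Rplp2, and Rplp1 was above Rplp0 and Rplp2 in both libraries.

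**Figure D1:**
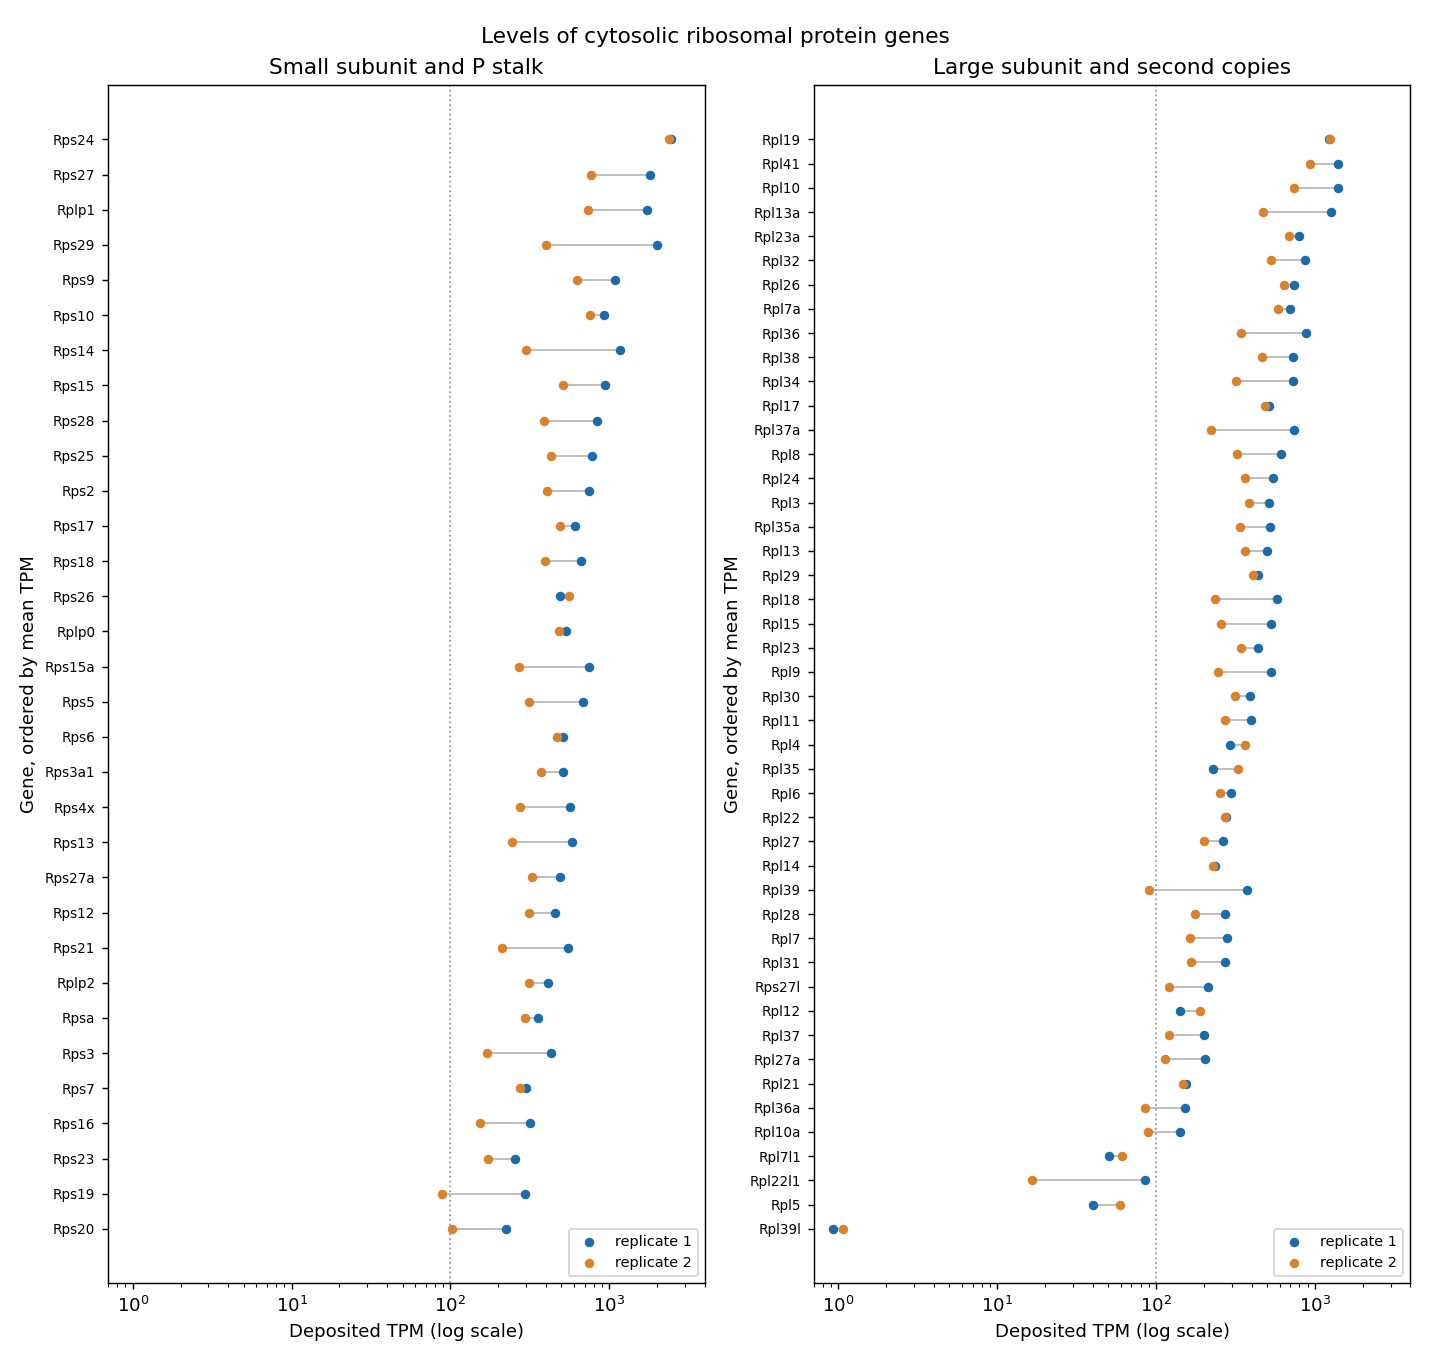
Deposited TPM (log axis) of each member in replicate 1 (blue) and replicate 2 (orange), ordered by mean TPM, with a grey line joining the libraries and a dotted line at 100 TPM. Rpl3l and Rpl10l, with 0 reads, and 3 further members are not drawn; Rps24 leads in both libraries, and most blue points lie to the right of the orange ones.

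Rps24, a small subunit protein mutated in some patients with Diamond-Blackfan anaemia, led in both libraries with 2461 and 2382 TPM. Its libraries nearly coincided. Rps27, a zinc-finger protein of the small subunit, followed with 1813 and 764 TPM, and its values did not reach those of Rps24 in either library. Rpl19, which lies at a bridge between the subunits, was as even as Rps24, at 1232 and 1241 TPM. Rps29, another zinc-finger protein, had 2007 TPM in replicate 1 but 400 TPM in replicate 2, so its place in the order depended on the library.

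Other members among the 10 highest were mostly of the large subunit. Rpl41, the smallest ribosomal protein, was at 1405 and 934 TPM, and Rpl10, which helps form the tRNA sites and is placed late in assembly, at 1398 and 741 TPM. Rpl13a was at 1255 and 474 TPM, and the small subunit gene Rps9 at 1084 and 625 TPM. All 4 were higher in replicate 1. The 10 highest members of each library held 32.0% and 31.9% of the members' TPM, and 7 genes were in both sets of 10.

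The lowest core gene, leaving the 6 additional copies aside, was Rpl5 with 40.1 and 59.5 TPM. The fold between the highest and lowest core gene was thus 61.4 in replicate 1 and 40.1 in replicate 2. Above Rpl5 came Rpl10a at 142 and 88.7 TPM, Rpl36a at 153 and 85.3 TPM, and Rpl21 at 154 and 148 TPM. Rpl27a was at 204 and 114 TPM. All of these are large subunit genes with sequence copies elsewhere in the genome, and the way reads were divided with those copies is described below. Of 82 pairs of neighbours in the order by mean TPM, 78 overlapped between their libraries. The 4 pairs that did not were Rpl10l and Rpl39l, Rpl39l and Rpl5, Rpl7l1 and Rpl10a, and Rps27 and Rps24. The spread between libraries holds a shift that most members shared, given below, so this overlap does not measure how firm the order is. The rank correlation of TPM between the libraries was 0.829 over 83 members, which share annotation, gene lengths and protocol in both.

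Several members act outside the ribosome or mark its control, and they were above 100 TPM in both libraries apart from Rpl5 in both and Rps19 in replicate 2. Rps6, the small subunit protein phosphorylated by S6 kinase, was at 509.96 and 470.25 TPM. Rps3, which also binds the p65 subunit of NF-kB, was at 433 and 170.11 TPM. Rpl13a, which joins a complex that silences inflammatory messengers in monocytes given interferon, was given above with the higher members. Rpl11, which with Rpl5 and 5S ribosomal RNA forms a particle that restrains Mdm2, was at 395 and 269.81 TPM. Rps19, the gene most often mutated in Diamond-Blackfan anaemia, was at 296 and 89.0 TPM. Rps6 was thus nearly even, while Rps3 and Rps19 were over 2-fold lower in replicate 2.

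The 6 additional copies were mostly low. Rps27l, a copy of Rps27 that p53 activates, was the highest with 213 and 121 TPM, below Rps27 in both libraries. Rpl7l1, a homolog of Rpl7, was at 50.3 and 61.3 TPM, against 281 and 163 TPM for Rpl7. Rpl22l1, which can stand in for Rpl22, was at 84.8 TPM in replicate 1 and 16.5 TPM in replicate 2, whereas Rpl22 was even at 274 and 269.86 TPM. Rpl39l, known from male germ cells, was at 0.92 and 1.07 TPM from 15 and 12 reads. Rpl3l, which striated muscle uses in place of Rpl3, and Rpl10l, which replaces Rpl10 in male germ cells, had 0 reads in either library, and a count of 0 allows up to 3 reads each. Rps4l, left out by the rule, was at 8.81 and 4.94 TPM, and Rpl26l1 was not among the symbols.

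The members differed between the libraries mostly in 1 direction. Ratios were taken from expected counts scaled by TMM, a method that sets the bulk of genes to an even ratio, for 81 members and 12552 genes in all with a mean count of at least 10. Apart by 1.5-fold or more in either direction were 41 of 81 members, against 30.3% of all genes tested. Of these, 40 were higher in replicate 1, against 16.4% of all, and the shares among genes of like length are given below. Only Rpl35 was as much higher in replicate 2, against 13.8% of all. At 2-fold or more, 21 were higher in replicate 1, against 5.97%, and 0 in replicate 2, against 5.35%. Of any size, 72 of 81 members were on the replicate 1 side, against 51.2%. The median log2 ratio of replicate 2 to replicate 1 was −0.58, while the median of all genes tested was −0.02. With 1 library against 1 no ratio has a replicate check.

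Small subunit genes had a median log2 ratio of −0.81 with 19 of 31 at least 1.5-fold higher in replicate 1. Large subunit genes had −0.50 with 17 of 43, and the stalk genes −1.05 with 2 of 3. The stalk median was that of Rplp2, which was 2.07-fold higher in replicate 1 by counts (4842 and 1572) but closer by TPM (411 and 311). The genes furthest apart were spread over both subunits. Rps29 had 7818 expected counts in replicate 1 and 1069 in replicate 2, which was 4.92-fold after scaling. Rpl22l1 had 699 and 97.0 counts (4.83-fold), and Rpl39, a very short protein of the exit tunnel, 3861 and 644 counts (4.03-fold). Rps14, a small subunit gene lost in the human 5q− syndrome, had 11556 and 2068 counts (3.76-fold). All 4 were higher in replicate 1.

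Next came Rpl37a with 3.22-fold, Rps19 with 3.05-fold, Rps21 with 2.58-fold, Rpl36 with 2.52-fold and Rps27 and Rpl18 with 2.36-fold each, all higher in replicate 1. Even genes were found in both subunits too. Rps24 was 1.12-fold higher in replicate 1, Rps6 1.06-fold, Rplp0 1.09-fold and Rpl14 1.00-fold. Rpl35 had 4129 counts in replicate 1 and 4482 in replicate 2, which left it 1.61-fold higher in replicate 2 after scaling. Rpl4, Rpl5, Rpl12, Rpsa, Rps26 and Rpl39l also lay on the replicate 2 side, at 1.12- to 1.34-fold, and Rpl19 and Rpl21 were nearly even on that side.

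Transcript length moved with these ratios. The members are short, with a median length of 736 bases, and other short protein-coding genes were also higher in replicate 1 at the median. Below 500 bases, the 51 other protein-coding genes had a median log2 ratio of −0.88 and the 12 members −1.11. From 500 to 750 bases the medians were −0.51 for 282 other genes and −0.72 for 32 members. From 750 to 1000 bases they were −0.40 for 526 and −0.55 for 21, and from 1000 to 1500 bases −0.20 for 1449 and −0.36 for 12. In the 1500 to 2500 range, 3157 other genes were at −0.06 and the 4 members at 0.09. The members were thus lower than other genes of like length in 4 of 5 ranges, by 0.15 to 0.23 on the log2 scale.

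With the running median over length taken out, an alternative chosen after seeing the data, the members' median log2 ratio was −0.17. At least 1.5-fold higher in replicate 1 were then 23 of 81, against 13.4% of all genes, and higher in replicate 2 were 5, against 14.5%. Those 5 were Rpl35, Rpl39l, Rps26, Rpl12 and Rpl5. On the replicate 1 side were 54 of 81. The running median was taken over all tested genes, whose median below 500 bases was −0.58, against −0.88 for the other protein-coding genes. Less was thus taken out for the shortest members than those genes would give. Rpl22l1 (3.44-fold), Rps29 (3.21-fold), Rpl39 (2.94-fold), Rps14 (2.71-fold), Rpl37a (2.28-fold) and Rps19 (2.28-fold) stayed over 2-fold higher in replicate 1, and Rpl35 was 2.09-fold higher in replicate 2. The rank correlation of ratio and length was 0.42 over 81 members and 0.25 over 12552 genes, which share their 2 libraries. The fragment length implied by the deposited effective lengths was 285 and 274 bases in the transcript table and 315 and 240 bases in the second quantification, whose part in the result was not tested.

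**Figure D2:**
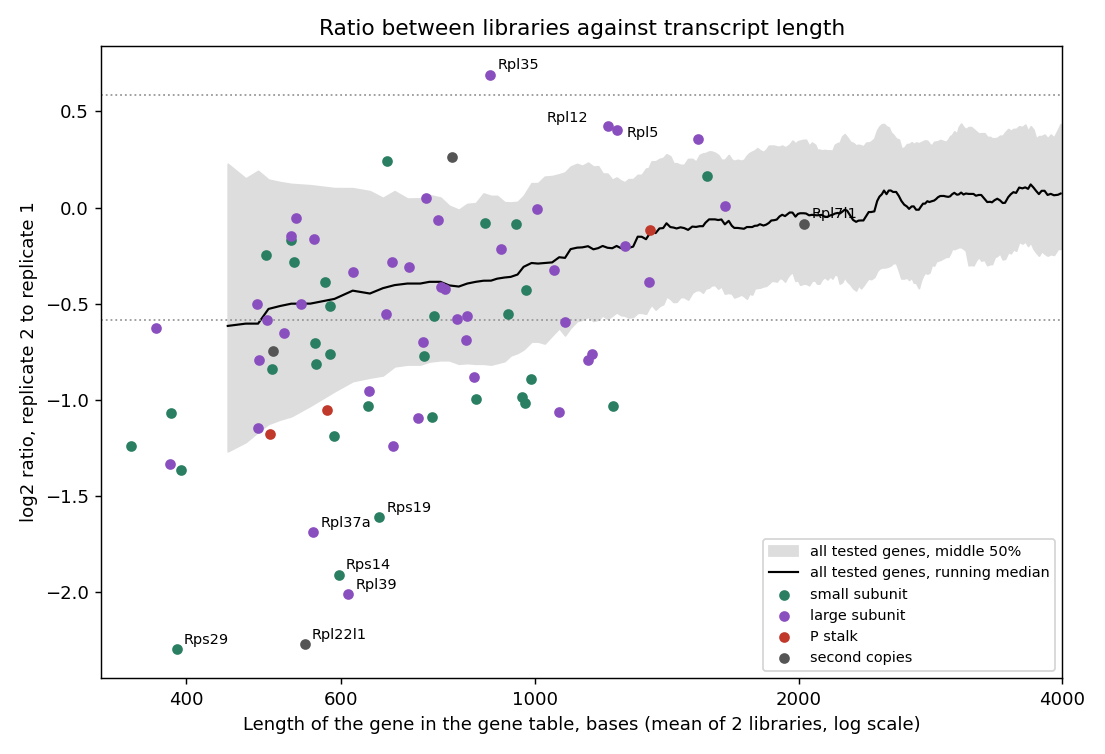
log2 ratio of replicate 2 to replicate 1 from TMM-scaled expected counts against gene length in bases (log axis), for 81 members coloured by group, over the running median (black) and middle 50% (grey) of 12552 tested genes; dotted lines mark 1.5-fold. The black line falls towards short genes, and most members, such as Rps29 and Rpl39, lie below it, with Rpl35 the highest.

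Markers of other cells also moved with the libraries. Summed TPM of 10 neutrophil markers was 69.3 in replicate 1 and 12.1 in replicate 2, and that of 6 platelet markers 274 and 95.9, nearly all of it Pf4, which macrophages can also express. Summed B cell markers were at 7.37 and 2.53 TPM, erythroid markers at 1.74 and 0.34 TPM, T cell markers at 1.09 and 0.41 TPM and stromal markers at 0.95 and 1.11 TPM. None of the neutrophil, B cell, T cell, erythroid or stromal markers reached 10 TPM in both libraries, and Hbb-bs and Hba-a2 had 0 reads in both. Their part in the ratios was not tested.

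A second deposited quantification, made from the reads without an alignment file, gave a second view of each level. Ratios of its TPM to that of the gene table were centred on the median of protein-coding genes (log2 −0.21 and −0.08), for 80 members among 9660 genes at 1 TPM or more. For 72 of 80 members the tables were within 1.5-fold in both libraries. In both libraries 6 members were at least 1.5-fold lower in the second quantification, against 0.29% of all genes tested, and 0 were higher, against 0.921%. Lower by 2-fold or more were 3, against 0.145%, and higher 0, against 0.373%. The centred second value lay inside the gene table's deposited TPM interval, of unstated level, for 33 of 80 members in replicate 1 and 11 in replicate 2. It was below the interval for 36 and 61 members and above it for 11 and 8. That interval did not always hold the table's own TPM, which was above it for 47 and 36 of 83 members. The interval counts and the 72 of 80 were not made over all genes, so they do not set the members apart from other genes.

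The widest gap was that of Rps12, a small subunit protein that also monitors cell competition in flies, with 458 and 311 TPM in the gene table and 14.5 and 10.7 TPM in the second. Rpl12, at the base of the stalk, had 142 and 188 TPM against 4.83 and 6.27 TPM, and Rpl5 40.1 and 59.5 TPM against 6.19 and 5.83 TPM. After centring, Rps12 was 27.1- and 27.2-fold lower, Rpl12 24.8- and 27.9-fold, and Rpl5 5.53- and 9.52-fold. The libraries thus gave similar gaps for Rps12 and Rpl12.

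The other 3 called were Rps15a, Rpl10a and Rpl27a. Rps15a, a small subunit gene, had 746 and 269 TPM against 385 and 115 TPM. Rpl10a had 142 and 88.7 TPM against 63.1 and 45.5 TPM, and Rpl27a 204 and 114 TPM against 110 and 70.5 TPM. Rpl10, with 1398 and 741 TPM against 850 and 194 TPM, passed 1.5-fold in replicate 2 alone, where it was 3.62-fold lower. Rpl14, Rps23 and Rps27 completed the 10 furthest apart, and each was lower in the second quantification by 1.21- to 1.58-fold.

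**Figure D3:**
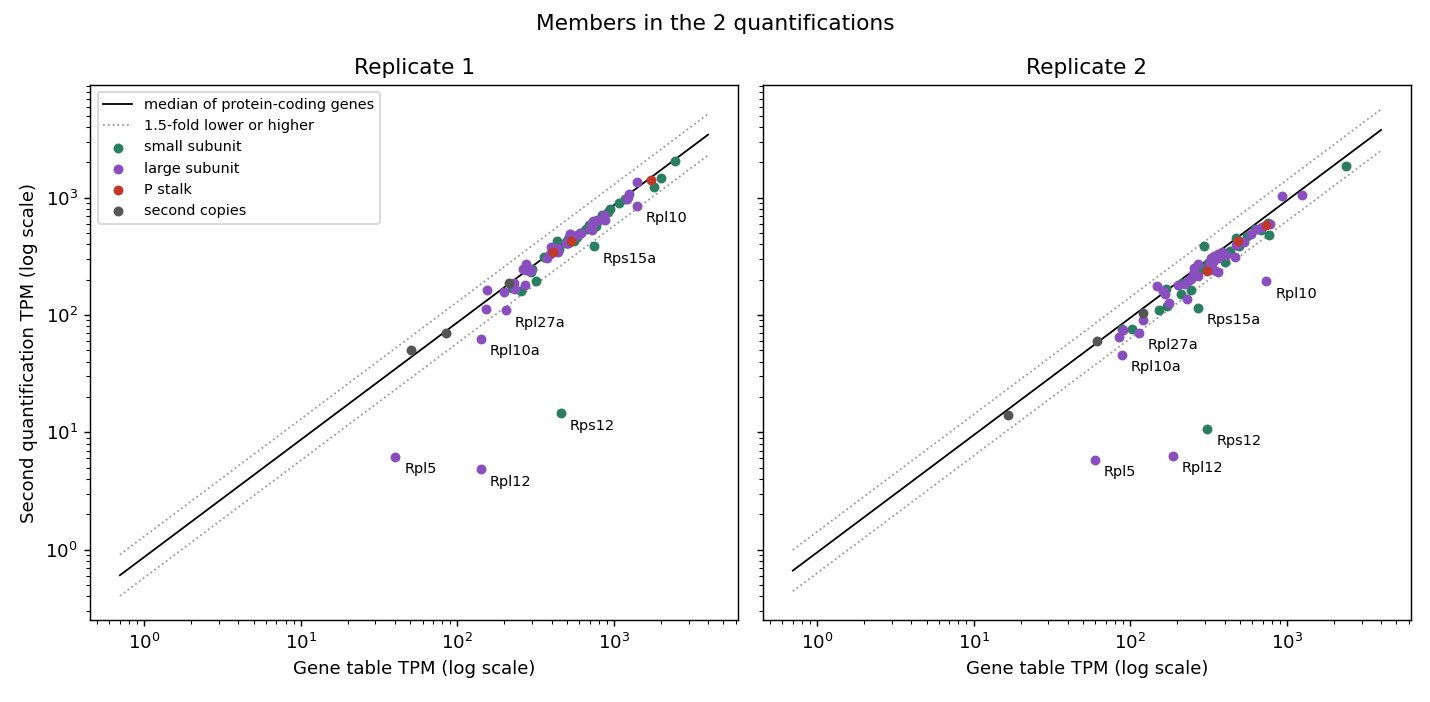
TPM of 80 members in the second quantification against the gene table (both axes log), replicate 1 left and replicate 2 right, coloured by group; the black line is the median of protein-coding genes and dotted lines mark 1.5-fold. Most members follow the black line, and Rps12, Rpl12 and Rpl5 lie far below it in both libraries.

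Sequence copies moved with these gaps. Genes elsewhere in the genome with at least 50% of the 31-base words of a transcript found in a member's protein-coding transcripts were counted as its copies. There were 306 such genes for 68 members, of which 283 were annotated as processed pseudogenes, 13 as transcribed processed pseudogenes, 9 as protein coding and 1 as a lincRNA. Rpl21 had the most with 19, followed by Rpl7a with 18, Rps2 with 17 and Rpl29 with 13. Most copies had few reads: 143 of 306 had 0 in the gene table of replicate 1 and 182 in that of replicate 2, and 30 and 21 reached 100 reads. Of the members, 60 of 83 took at least 90% of the reads of gene plus copies in both tables and both libraries, and 6 took under 50% somewhere.

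For Rps12 the reads sat with the parent in 1 table and with a copy in the other. The gene table gave Rps12 4347 and 2048 counts and its copy Rps12-ps3 87.5 and 43.9, while the second table gave Rps12-ps3 4567 and 2278 counts. Rps12 (chromosome 10, 23785183 to 23787275, GRCm38) thus held 92.8% and 87.1% of the family's reads in the first and 3.96% and 3.63% in the second. Rps12-ps3 (chromosome 19, 59322290 to 59322783) carries all 399 coding bases of Rps12 without a difference. Summed over gene and copies, the TPM was 532 and 412 in the gene table and 545 and 384 in the second.

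Rpl12 divided in the same way, and Rpl5 did not. Gm10275, a transcribed processed pseudogene with the whole 498-base coding sequence of Rpl12, had 1927 and 549 counts in the gene table and 6170 and 4286 in the second. Rpl12 itself had 66.9% and 83.8% of its family's reads in the first and 2.52% and 2.31% in the second. Gm15500, which carries the 894 coding bases of Rpl5 without a difference, took more reads than Rpl5 in both tables, with 5872 and 5030.2 against 7278 and 6310 counts. Rpl5 therefore held 17.9% and 18.5% of its family in the gene table and 3.15% and 2.19% in the second. The family total of Rpl5 was 298 and 380.06 TPM in the gene table, against 40.1 and 59.5 TPM for Rpl5 itself, the lowest core gene.

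The coding starts below show what the tables had to divide, since a parent and its copy have the same letters there. The first 2 lines give coding bases 1 to 60 and the third gives all 78 coding bases of Rpl41, shared with its copy on chromosome 14. The last pair gives coding bases 87 to 146 of Rpl35 and Gm2000, whose coding sequences differ only by C117T, counted from the A of the start codon and in capitals.
Rps12 and Rps12-ps3: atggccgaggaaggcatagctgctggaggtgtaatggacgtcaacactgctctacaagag
Rpl12 and Gm10275: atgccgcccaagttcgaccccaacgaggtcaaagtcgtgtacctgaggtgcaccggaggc
Rpl41 and Gm10076: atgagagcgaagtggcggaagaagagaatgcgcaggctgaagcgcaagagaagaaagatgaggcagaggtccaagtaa
Rpl35: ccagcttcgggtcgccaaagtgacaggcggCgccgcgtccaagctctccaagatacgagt
Gm2000: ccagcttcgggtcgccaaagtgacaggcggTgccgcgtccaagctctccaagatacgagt

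Most copies with many reads carried the parent's coding sequence without a difference, and copies with fewer reads were not compared in this way. Of the 14 parent and copy pairs in which the copy had at least 1000 reads in a table and library, 10 had 0 differences over the coding sequence. Beside the 3 above these were Rpl10 and Rpl10-ps3 (645 bases), Rpl10a and Rpl10a-ps1 (654), Rpl28 and Rpl28-ps1 (414), Rpl31 and Rpl31-ps8 (378), Rpl41 and Gm10076 (78), Rps16 and Rps16-ps2 (441), and Rps6 and Rps6-ps4 (750 bases). Rpl10-ps3 had 1212 and 608 counts in the gene table against 6650 and 6080.1 in the second, and Rpl10 fell from 94.0% and 92.8% of its family to 68.0% and 30.0%.

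The division did not always favour the copy in the second quantification. Gm10076, a lincRNA gene that carries the 25-residue Rpl41 reading frame, had 4654 and 3407 counts in the gene table and 8.9 and 2.2 in the second. Rpl41 thus held 65.8% and 55.5% of its family in the gene table and 99.9% and 100% in the second. With all copies added to their parents, an alternative chosen after seeing the data, 5 members were apart by 1.5-fold in both libraries: Rpl41, Rps28 and Rps15a lower in the second quantification, and Rpl12 and Rpl28 higher. The shares over all genes tested were then 0.259% lower and 0.922% higher. In the family of Rps28, the short copy Gm10443 had 356 and 92.5 counts but 823 and 409 TPM in the gene table, and 0 reads in the second quantification. Rps12, Rpl5, Rpl10a and Rpl27a were then no longer apart. Rps15a has 5 copies but took over 99% of its family's reads in both tables, and its gap instead moved with a 250-base transcript, Rps15a-203, that held 75.3% and 56.7% of its level in the gene table's isoform percent and 52.6% and 0.7% in the second. The part of that transcript in the gap was not tested.

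**Figure D4:**
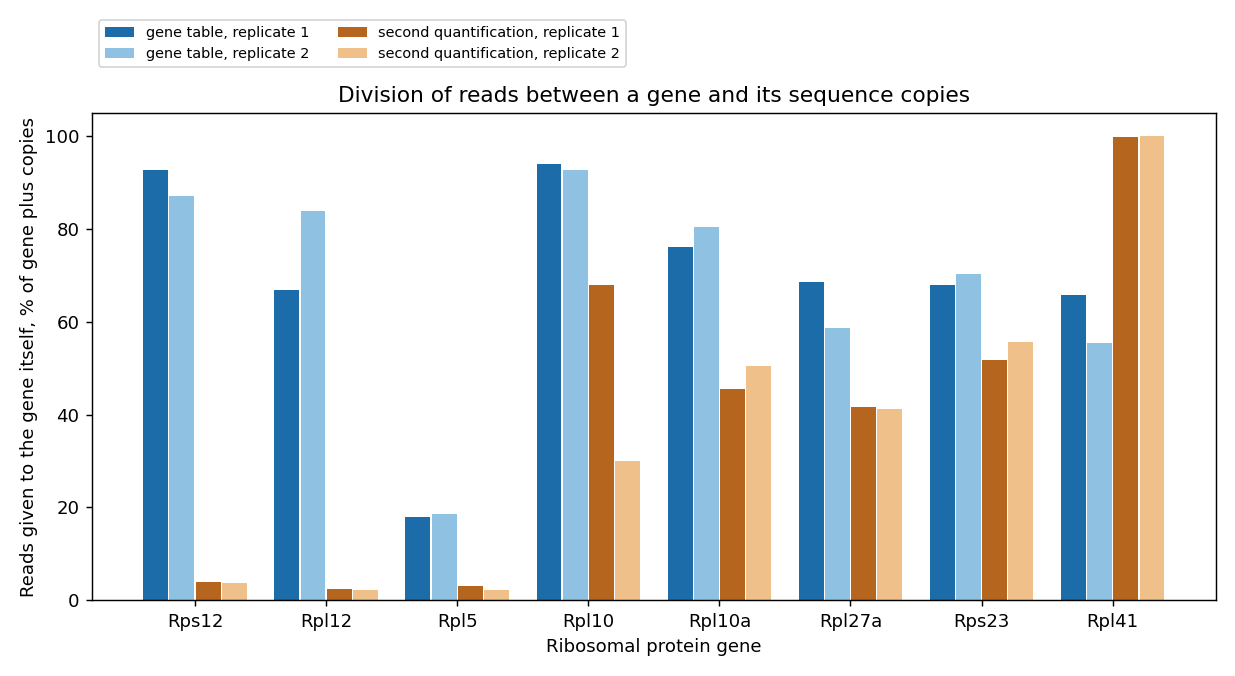
Reads assigned to a member as a percent of those of the member plus its sequence copies (vertical axis from 0), for 8 members in the gene table (blue) and the second quantification (brown), 1 bar per library. Rps12 and Rpl12 hold most reads in the gene table and under 4% in the second, while Rpl41 goes from 65.8% and 55.5% to nearly all.

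The library ratios changed little when sequence copies were set aside. Among the 60 members with at least 90% of their family's reads throughout, 30 were at least 1.5-fold higher in replicate 1 and 0 in replicate 2, against 16.4% and 13.8% of all genes tested. The median log2 ratio of these 60 was −0.60, without the trend over length removed. Rpl35 was not among them: Gm2000 had 1760 and 826 counts, so Rpl35 held 70.1% of its family in replicate 1 and 84.4% in replicate 2. With its copies added, an alternative chosen after seeing the data, the Rpl35 family was 1.34-fold higher in replicate 2, and no member was then at least 1.5-fold higher there.

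A single transcript accounted for most members. Of the 81 with reads, 52 had a leading transcript with at least 90% of the gene's abundance in both libraries, among them Rps24-201 with 90.4% and 94.5%, and Rps27-201, Rpl19-201 and Rplp1-201 with 99.1% or more. The same count was not made over all genes, so it does not set the members apart from other genes. The leading transcript was protein coding for 77 and a retained intron for Rps16, Rps20 and Rpl5. Rps20-201 held 88.1% and 85.3% and Rps16-203 62.1% and 50.6%, and both led in the second quantification as well. Rpl5-202 held 52.0% and 67.1% here but 22.3% and 4.98% in the second quantification, where the protein-coding Rpl5-201 led in both libraries.

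For 9 members the leading transcript moved by 20 percentage points or more between the libraries in the gene table's isoform percent, and for 5 of these it did so in the second quantification too. These counts were likewise not made over all genes. Rpl13a-214, of 389 bases, held 48.2% in replicate 1 and 11.8% in replicate 2, and the second quantification gave 47.3% and 11.4%. Rpl29-203 went from 69.4% to 35.1% (69.7% to 40.2% in the second), while Rps10-201 went from 56.5% to 88.7% (57.8% to 89.1%). Rplp2-203 also moved in both. Rpl10-201 went from 28.2% to 60.8%, but from 14.7% to 30.5% in the second quantification. Rpsa-201 went from 34.1% to 78.4%, but from 22.0% to 23.7%, and Rpl10a and Rpl7l1 also moved by less than 20 points there. For 65 of the 81 members the second quantification had the same leading transcript in both libraries.

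The genes also carry small nucleolar RNAs, which guide the modification of ribosomal RNA and are processed from introns. On the same strand, 30 members held 58 annotated snoRNA genes within their span, a count that was not made over all genes. Rpl4 held 5 and Rpl13a held 4. Rpl4 was on the replicate 2 side, at 291 and 365 TPM. Rpl13a was on the replicate 1 side, as were 72 of all 81 members tested, and host genes were not compared with other members. The members lay on 19 chromosomes, with 14 of them on chromosome 7, and the share of all genes on that chromosome was not counted.

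Genes listed outside the rule lay on the replicate 1 side as well. Fau, which encodes Rps30 fused to a ubiquitin-like protein, was at 665 and 478 TPM. Rack1, a signalling scaffold on the small subunit, was at 366 and 224 TPM, and Rpl36al at 268 and 156 TPM. Rpl37rt, a transcribed processed pseudogene also counted above as a copy of Rpl37, was at 40.05 and 6.63 TPM, and Rps27rt at 6.26 and 2.41 TPM. In the gene table all 6 genes of that list were at least 1.5-fold higher in replicate 1, against the 16.4% of all genes tested, with 1.59-fold for Fau and 1.94-fold for Rack1. Transcript length, with which the ratios moved, was not matched for this list. Among other protein-coding genes the share was 64.7% below 500 bases and 44.3% from 500 to 750 bases. The 7.31-fold of Rpl37rt rested on 80.6 and 7.05 counts and was 1.25-fold in the second quantification, with 414 and 217 counts. Rps27rt had 21.8 and 5.72 counts in the gene table and 0 reads in the second quantification.

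Lists of genes that make ribosomes or share the TOP tract had median ratios near 0. Of 36 assembly factors 27 reached 10 TPM in both libraries, led by Npm1 (151 and 198 TPM), Sbds (140.04 and 199.88 TPM), Ncl (78.4 and 147 TPM) and Pes1 (59.2 and 91.5 TPM). At 1.5-fold or more 3 of them were higher in replicate 1 and 6 in replicate 2, against 16.4% and 13.8% of all genes tested. Their median log2 ratio was 0.13. Of 13 genes of RNA polymerase I and its factors 6 reached 10 TPM, with Polr1d (69.2 and 48.8 TPM), Ubtf, Polr1c and Taf1d highest, and 1 and 2 passed 1.5-fold in each direction. The difference between these lists and the members was not tested, and their transcript lengths, with which the ratios moved, were not matched.

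Of 18 other genes with known TOP transcripts, all reached 10 TPM. Eef1a1, the elongation factor that delivers tRNA, was at 2901 and 3139 TPM, Tpt1 at 1269.76 and 1442 TPM, and Eef2, which moves the ribosome along, at 696 and 598 TPM. Pabpc1, the poly(A)-binding protein, was at 488 and 1243 TPM and was the only one of the 18 at least 1.5-fold higher in replicate 2, against 13.8% of all genes tested. Eif3k, Eif3f and Gas5 were so in replicate 1, against 16.4% of all, and the list's median log2 ratio was −0.04. Of 16 regulators of ribosomal protein genes and TOP messengers 14 reached 10 TPM, led by Max (150.38 and 209 TPM) and Larp1 (65.5 and 86.4 TPM), with Yy1 and Tsc2 next. Myc, an activator of ribosome production, was at 11.3 and 24.98 TPM, and Gabpa, at 12.8 and 28.7 TPM, was the other regulator at least 1.5-fold higher in replicate 2. None of the 16 was so in replicate 1, and the shares over all genes tested were 13.8% for replicate 2 and 16.4% for replicate 1.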

How the data were processed

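Polyadenylated RNA was sequenced from 2 libraries of 1 group. Notes that accompany the deposited files name mm10 and annotation M21, and say that transcriptome alignments underlie the tables of genes and transcripts. The authors deposited expected counts (estimated reads per gene, not always whole), TPM and FPKM per gene and transcript, and the isoform percent of each gene. Another deposited table per transcript gives estimated counts and TPM made from the reads and an index, summed here to genes. Programs and strand use: not given in the sources used here, so overlapping genes are uncertain.

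Ratios used counts rounded to whole numbers, a prior of 0.5 reads and TMM sizes (edgeR 4.0.16, R 4.3.3), for genes with a mean count of 10 or more; library totals were 45341916 and 32087637. Ratios between tables used log2(TPM + 0.1). The ratio step was tested on simulated data. Promoter windows came from RefSeq (63 of 83 symbols matched), and coding sequences from GENCODE M21.

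Values were given for the 10 highest and 10 lowest members, the 10 furthest apart between libraries and between tables, all additional copies, genes outside the rule, the 4 highest of other lists, and members with roles outside the ribosome. Members and lists were chosen with earlier results of these data known. Other genes named were chosen after values were seen. A few genes are not reported here by name.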

Additional observations from a re-analysis of the deposited data

How the results depend on the processing

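No paired analysis was possible because the 2 libraries form 1 group. The members' share of protein-coding TPM (4.32%) was 1.16% in expected counts, which are not per length. The number apart between libraries (41) was 21 at 2-fold and 40 to 48 under the other scalings, filters and tables and with copies added, and 28 with the trend over length removed, where the share of calls higher in replicate 1 went from 97.6% to 82.1% and the median log2 ratio from −0.58 to −0.17. The number apart between quantifications (6) was 3 at 2-fold. Pseudogenes named for a member held 4.07% of the TPM of members and pseudogenes, and 7.32% in the second quantification. Leaving out 1 library gave 73 to 77 members at 100 TPM, shares of 3.31% to 5.33%, 6 to 8 members apart between quantifications, pseudogene shares of 3.61% to 4.53%, and 53 to 55 members led by 1 transcript. No count or median, and no member called between libraries, turned direction; among members not called, the sign changed for 18 with the trend removed and for 0 to 3 otherwise. Between quantifications, the mean log2 ratio turned to 0.38 for Rps12 with named pseudogenes added, and to 0.11 for Rps12, 0.78 for Rpl12 and 0.29 for Rpl27a with all copies added. With 2 libraries of 1 group, no value has a test, and reads shared with near-identical copies limit the levels of single genes.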
